A study of Mus musculus with 4 samples.

Results

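Fatty acid synthesis from sugar, de novo lipogenesis, was followed here through 10 genes in mouse brown fat: Acly, Acaca, Acacb and Fasn of the carbon chain route, Me1 and G6pdx of the NADPH supply, Thrsp and Mid1ip1, which act on the pathway's enzymes, and the transcription factor genes Srebf1 and Mlxipl. They were taken by gene symbol, not by their values, and each had 1 row among 55387 rows of the expression tables. Fragment counts scaled by transcript length and library size (FPKM) were available for 2 Sox4f/f mice, labelled WT, and 2 Sox4-MKO mice, all male and 15 weeks old, with 1 brown fat library per mouse. Both groups carried the floxed alleles of Sox4, which encodes a SOX family transcription factor, and in Sox4-MKO mice a Cre driven by Myf5 was added, which acts in the precursor lineage of brown adipocytes and of skeletal muscle. The mice were kept at room temperature, and no treatment is given for these libraries. Whether the control littermates carried a Cre is not given in the sources used here.

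De novo lipogenesis turns citrate exported from mitochondria into palmitate. ATP-citrate lyase splits the citrate to acetyl-CoA, acetyl-CoA carboxylase makes malonyl-CoA from it, and fatty acid synthase joins malonyl-CoA units using NADPH. SREBP1c, the product of Srebf1, is known to raise the transcription of these enzymes when insulin is high, and ChREBP, the product of Mlxipl, does so when glucose is high. Brown fat is known both for burning fatty acids to make heat and for making them, and cold exposure raises both activities.

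Fasn could not be compared, and of the other 9 genes 8 had a higher mean in the libraries labelled Sox4-MKO. Mlxipl had a lower one. These libraries are called MKO-labelled hereafter, because Sox4 RNA was not lower in them. Fold differences between the groups are ratios of mean FPKM. By these Me1 differed most, at 3.02-fold, followed by Mid1ip1 at 1.83-fold, Acly at 1.80-fold and Acaca at 1.70-fold. On the log2 scale tested, Acly (1.06) came ahead of Mid1ip1 (0.92). At an unadjusted p under 0.05 in limma, a linear model fitted to log2(FPKM + 1) of all genes, 3 of the 9 were higher, namely Me1, Mid1ip1 and Srebf1, and 0 were lower. The same rule called 7.95% of the 12877 tested genes higher and 8.28% lower. After Benjamini-Hochberg adjustment limma called 0 of the 9, and 0.0% of all tested genes. In 6 of the 9 both MKO-labelled values lay above both Sox4f/f values, against 21.7% of all tested genes, and in 0 of the 9 both lay below, against 29.6%. At least 1 on the log2 scale separated the group means of 2 of the 9, Me1 and Acly, and of 5.27% of all tested genes in that direction. The median log2 difference was 0.47 over the 9 genes and -0.05 over all tested genes without a library at 0. The study itself reported a rise of lipogenesis genes from these same libraries, without naming them in its text. The direction of the 9 genes is therefore not independent evidence. By qPCR in other mice the study also reported lipogenesis genes as raised.

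**Figure D1:**
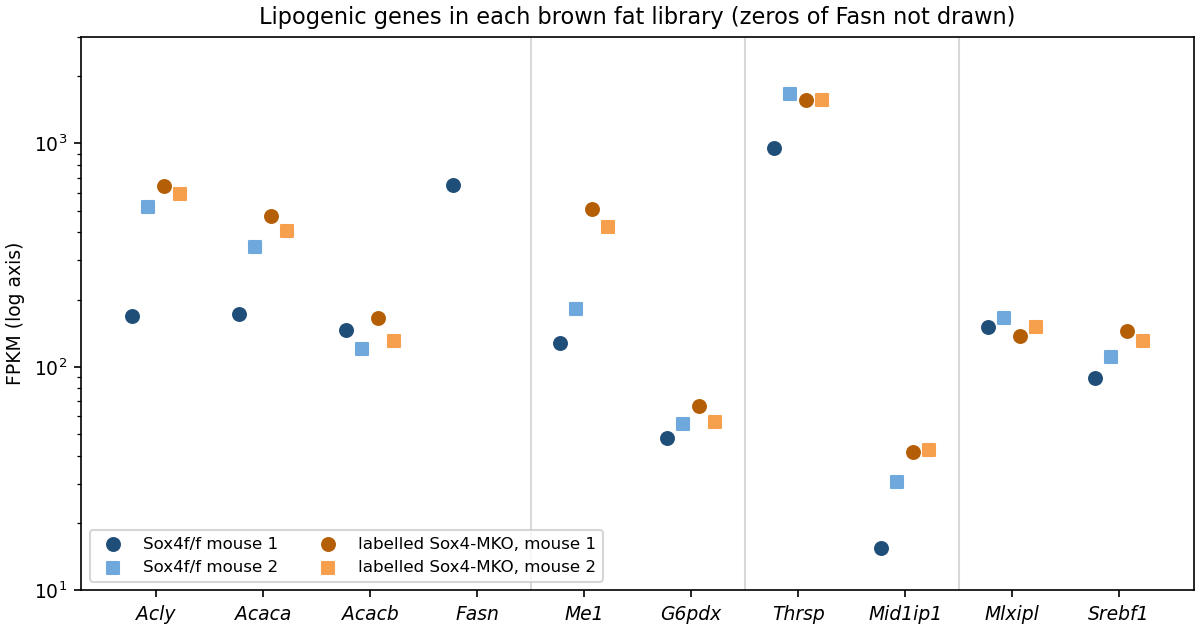
FPKM on a log axis of the 10 genes in each library, with 1 point per mouse, blue for Sox4f/f and orange for the MKO-labelled libraries; the zeros of Fasn are not drawn. Sox4f/f mouse 1 is the lowest of the 4 libraries for Acly, Acaca, Me1, G6pdx, Thrsp, Mid1ip1 and Srebf1, and both orange points of Me1 lie far above both blue ones.

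The labels call the material brown fat adipocytes, and markers of other cells were measured beside those of adipocytes. Sox4 was listed at 1.98 and 1.06 FPKM in the Sox4f/f mice and at 0.981 and 3.06 FPKM in the MKO-labelled mice. At this low level the RNA of the targeted gene was not lower there (log2 difference 0.20, SE 0.43, limma adjusted p = 0.843). In other, younger mice of these genotypes the paper reported strongly reduced SOX4 protein in brown fat. Every direction given here is one between the labels. The steps between low values corresponded to roughly 12200000 to 16900000 fragments per library. Among the 9 genes the smallest value stood for about 429 fragments. The Sox4 values, in the order given, stood for only about 131, 62, 61 and 249 fragments. The summed FPKM of 9 brown adipocyte markers was 8180 and 7944 in Sox4f/f mice and 4180 and 4804 in MKO-labelled mice, and 6 of the 9 were lower at p under 0.05. The sum of 10 skeletal muscle markers was 191 and 708 against 13606 and 2464, with 10 of 10 higher on average, 9 of them without overlap and 8 at p under 0.05. The sum of 9 macrophage markers was 107 and 147 against 230 and 206, with 9 of 9 higher without overlap. In bulk tissue, fewer cells of a type and less RNA per cell cannot be told apart. White fat, which also makes fatty acids, is marked by 5 genes whose sum was 255 and 220 FPKM in Sox4f/f mice and 557 and 630 FPKM in MKO-labelled mice. Of these, 3 were higher without overlap and at p under 0.05. They were the adipokine genes Lep (2.58-fold) and Retn (3.77-fold) and the angiotensinogen gene Agt (3.5-fold). Nnat (0.759-fold) and Ccdc3 (0.802-fold) had lower means and overlapped. Most of the rise in the sum came from Retn, at 137 and 111 against 425 and 510 FPKM. The part of the white adipocyte markers in the values of the 9 genes was not tested. For other tissues that make fatty acids, the summed liver markers lay between 0.175 and 3.83 FPKM, and the summed mammary or skin epithelium markers between 0.0443 and 0.417 FPKM, with the milk protein genes Csn2 and Wap at 0 in all 4 libraries.

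Me1 encodes cytosolic malic enzyme, which makes NADPH for fatty acid synthesis while turning malate into pyruvate. Its gene lies on chromosome 9 from 86581371 to 86695953 on the minus strand of GRCm38. Me1 stood at 128 and 181 FPKM in Sox4f/f mice 1 and 2, and at 510 and 423 FPKM in MKO-labelled mice 1 and 2. The groups did not overlap, and the closest values of the 2 groups were 242 FPKM apart. The means were 154 ± 37.5 and 467 ± 61.6 FPKM (SD, n = 2 each), a log2 difference of 1.6 (SE 0.21, limma unadjusted p = 0.000933, adjusted p = 0.191). Against Sox4f/f mouse 2 alone the MKO-labelled mice were 2.82-fold and 2.34-fold higher, and the log2 difference stayed between 1.36 and 1.85 when any single library was left out. The muscle markers, with which Me1 moved in direction, were 5.52-fold higher in MKO-labelled mouse 1 than in mouse 2, while Me1 was 1.21-fold higher there. The part of the muscle and macrophage markers in the values of Me1 was not tested.

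The outer RefSeq promoter of Me1 is shown because it belongs to the gene with the largest difference. It covers the 250 bases before the outer start site, chr9:86695915-86696164 on the minus strand of GRCm38.p6. Capitals mark the GC boxes searched for (GGGCGG, or CCGCCC on the other strand), 2 of which are adjacent. The 250 bases before the inner start site, at 86687277, are not shown. They held no GC box and 1 match of CCAAT or its reverse, ATTGG.
Me1: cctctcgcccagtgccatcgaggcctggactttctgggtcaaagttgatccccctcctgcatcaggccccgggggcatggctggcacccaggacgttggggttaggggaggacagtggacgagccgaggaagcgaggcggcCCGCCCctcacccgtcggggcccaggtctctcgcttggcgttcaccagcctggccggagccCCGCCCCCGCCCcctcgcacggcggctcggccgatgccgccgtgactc

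G6pdx encodes the X-linked glucose-6-phosphate dehydrogenase, which opens the pentose phosphate route to NADPH, and lies on chromosome X from 74409483 to 74429194. It was at 48.1 and 55.6 FPKM in Sox4f/f mice and at 66.5 and 56.5 FPKM in MKO-labelled mice. The groups were separated by only 0.816 FPKM, less than the distance between the mice of either group (log2 difference 0.24, SE 0.15, limma adjusted p = 0.472). The ratio of Me1 to G6pdx within a library was 2.66 and 3.25 in Sox4f/f mice and 7.67 and 7.49 in MKO-labelled mice, a difference of 1.37 in mean log2 ratio. An exact two-sided permutation test over 2 against 2 libraries gave p = 0.33, the smallest p that this design allows. Ikbkg overlaps G6pdx on the opposite strand and was at 11 to 12.8 FPKM.

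Acly encodes ATP-citrate lyase, the cytosolic source of acetyl-CoA, and lies on chromosome 11 from 100476353 to 100528000 on the minus strand. Sox4f/f mouse 1 had 168 FPKM and Sox4f/f mouse 2 had 517 FPKM, against 642 and 591 FPKM for the MKO-labelled mice. Sox4f/f mouse 2 thus stood much nearer to the MKO-labelled mice than to the other control, although the groups did not overlap. The mean of 343 ± 247 FPKM in Sox4f/f compared with 617 ± 36.1 FPKM in the MKO-labelled mice (SD, n = 2 each), and the log2 difference of 1.06 did not pass the test (SE 0.54, limma adjusted p = 0.402). The size rested on the control mice: it was 0.25 without Sox4f/f mouse 1, where it did not pass either, and 1.87 without Sox4f/f mouse 2, where it passed.

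Acaca encodes the cytosolic acetyl-CoA carboxylase that feeds fatty acid synthesis, and spans chromosome 11 from 84129672 to 84401651. Its levels of 173 and 342 FPKM in Sox4f/f mice and 471 and 406 FPKM in MKO-labelled mice followed the order of Acly, again with Sox4f/f mouse 1 far below the rest and no overlap. The log2 difference was 0.84 (SE 0.35, limma adjusted p = 0.33), which did not pass the test. It was 0.35 without Sox4f/f mouse 1, again not past the threshold, and 1.34 without Sox4f/f mouse 2, past it.

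Acacb encodes the carboxylase of the mitochondrial surface, whose malonyl-CoA restrains fatty acid import for oxidation, and lies on chromosome 5 from 114146535 to 114250761. Unlike Acaca it overlapped between the groups, with 146 and 120 FPKM in Sox4f/f mice and 165 and 131 FPKM in MKO-labelled mice (log2 difference 0.15, SE 0.18, limma adjusted p = 0.698), and it was the only member of the 9 that was lower in Sox4f/f mouse 2 than in mouse 1. The ratio of Acacb to Acaca was 0.846 in Sox4f/f mouse 1, 0.35 in Sox4f/f mouse 2, 0.35 in MKO-labelled mouse 1 and 0.322 in MKO-labelled mouse 2. Only Sox4f/f mouse 1 stood apart in this ratio (exact permutation p = 0.667), and the difference in log2 ratio between groups went from -1.33 without Sox4f/f mouse 2 to -0.06 without Sox4f/f mouse 1. The ratio of Acly to Acaca was 0.975 and 1.51 in Sox4f/f mice and 1.36 and 1.46 in MKO-labelled mice, which overlapped (exact permutation p = 1.0).

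Fasn encodes fatty acid synthase itself and lies on chromosome 11 from 120805846 to 120824547. Sox4f/f mouse 1 had a value of 652 FPKM, or about 90500 fragments, whereas 3 of the 4 tables list it at 0. A gene of this abundance at an exact 0 can be a failed estimate, so its libraries were not compared. Of 863 rows that reached 100 FPKM in any library, 13 were at 0 in another, among them Scd1, the stearoyl-CoA desaturase gene, with 4491 FPKM for Sox4f/f mouse 1 and the same 3 zeros. Neither the synthase nor Scd1 therefore enters any comparison.

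Thrsp encodes the small protein Spot 14, known to rise with lipogenesis, and Mid1ip1 encodes its relative MIG12, which promotes the assembly of acetyl-CoA carboxylase into active filaments. Thrsp was the most abundant of the 9 genes compared, per length, in every library, at 957 and 1656 FPKM in Sox4f/f mice and 1566 and 1560 FPKM in MKO-labelled mice, and Mid1ip1 was the least abundant of them in every library. Thrsp overlapped between groups, with Sox4f/f mouse 2 the highest of the 4 (log2 difference 0.31, SE 0.29, limma adjusted p = 0.608). Without Sox4f/f mouse 1 its difference turned to -0.08, and without Sox4f/f mouse 2 it was 0.71 and past the unadjusted threshold.

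Mid1ip1, on chromosome X from 10715013 to 10719690, was at 15.4 and 30.5 FPKM in Sox4f/f mice and at 41.5 and 42.5 FPKM in MKO-labelled mice. The groups were 11 FPKM apart at their closest, and the MKO-labelled mice were 1.36-fold and 1.39-fold above Sox4f/f mouse 2. The means were 22.9 ± 10.7 and 42.0 ± 0.727 FPKM (SD, n = 2 each), with a log2 difference of 0.92 (SE 0.33, limma unadjusted p = 0.0427, adjusted p = 0.292). The call ended without Sox4f/f mouse 1, where the difference was 0.45, and without MKO-labelled mouse 1 or mouse 2, where it was 0.94 and 0.90 with a larger standard error. Within a library Thrsp exceeded Mid1ip1 by 62.3-fold and 54.3-fold in Sox4f/f mice and by 37.7-fold and 36.7-fold in MKO-labelled mice. This ratio did not overlap between groups and differed by -0.64 in log2 (exact permutation p = 0.33, the smallest possible).

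Srebf1, the gene of SREBP1, lies on chromosome 11 from 60199089 to 60222581 and was at 88.7 and 111 FPKM in Sox4f/f mice and at 145 and 131 FPKM in MKO-labelled mice. The groups were 20.0 FPKM apart at their closest. The Sox4f/f mean of 100 ± 16.0 FPKM stood against 138 ± 9.56 FPKM for the MKO-labelled mice (SD, n = 2 each), a 1.38-fold difference (log2 difference 0.47, SE 0.16, limma unadjusted p = 0.0334, adjusted p = 0.269). The call held without Sox4f/f mouse 2, at 0.63, and ended without Sox4f/f mouse 1, at 0.31, without MKO-labelled mouse 1, at 0.40, and without MKO-labelled mouse 2, at 0.54. Rai1 overlaps Srebf1 on the opposite strand and was at 7.18 to 9.62 FPKM. The tables give 1 value per gene, so SREBP1a and SREBP1c transcripts were not separated.

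Mlxipl, the gene of ChREBP, lies on chromosome 5 from 135089890 to 135138382. Its levels varied less than those of Srebf1, at 150 and 166 FPKM in Sox4f/f mice and 137 and 150 FPKM in MKO-labelled mice. As for Srebf1, transcripts from the different starts of Mlxipl were not separated. The groups met at about 150 FPKM, and the log2 difference was -0.14 (SE 0.12, limma adjusted p = 0.598). Mlxipl exceeded Srebf1 by 1.69-fold and 1.49-fold in Sox4f/f mice, whereas the ratio was 0.943 and 1.14 in MKO-labelled mice. The log2 ratio differed by -0.61 between groups without overlap (exact permutation p = 0.33, the smallest possible), and by -0.75 to -0.47 when a library was left out.

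**Figure D2:**
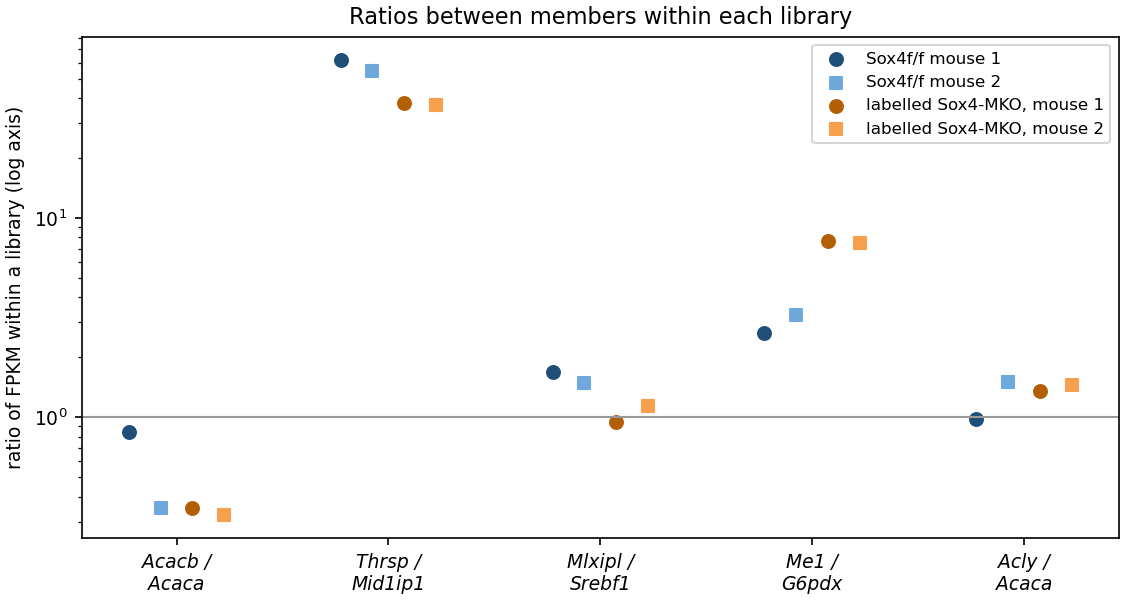
Ratios of FPKM between 2 genes of the same library on a log axis, with 1 point per mouse, blue for Sox4f/f and orange for the MKO-labelled libraries; a ratio of 1 is the grey line. The ratio of Me1 to G6pdx is higher in both orange points than in both blue ones, Thrsp to Mid1ip1 and Mlxipl to Srebf1 are lower, and for Acacb to Acaca only Sox4f/f mouse 1, at 0.846, stands away from the others.

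Sox4f/f mouse 2 was above mouse 1 in 8 of the 9 genes, against 5969 of 12596 tested genes without a library at 0. The median absolute log2 difference between these mice was 0.50 over the 9 genes and 0.19 over all tested genes. This was not particular to them: mouse 2 was also above mouse 1 in 11 of 12 sterol-response genes (median absolute difference 0.46), 8 of 9 macrophage markers (0.51), 5 of 5 erythroid markers (0.50) and 10 of 10 muscle markers (1.70). Among brown adipocyte markers mouse 2 was above mouse 1 in only 2 of 9, and among white adipocyte markers in 2 of 5. Of the 9 lipogenic genes, Acly alone differed by at least 1 on the log2 scale between the control mice (1.61, higher in mouse 2). In that direction 1.87% of all tested genes did so. Between the MKO-labelled mice the median was 0.14 over the 9 genes and 0.23 over all tested genes, and 0 of the 9 were apart by at least 1, against 6.69% of all tested genes. The 5 tested genes outside the group that lay nearest to Acly over the 4 libraries were found by the Euclidean distance between centred log2(FPKM + 1) values. They were Gm8162, at a distance of 0.254, Map2k6 at 0.503, Slc2a5 at 0.541, Prnd at 0.555 and Ttc25 at 0.592. Slc2a5 encodes the fructose transporter GLUT5 and was at 2.01 and 5.60 FPKM in Sox4f/f mice and at 11.7 and 11.1 FPKM in MKO-labelled mice.

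**Figure D3:**
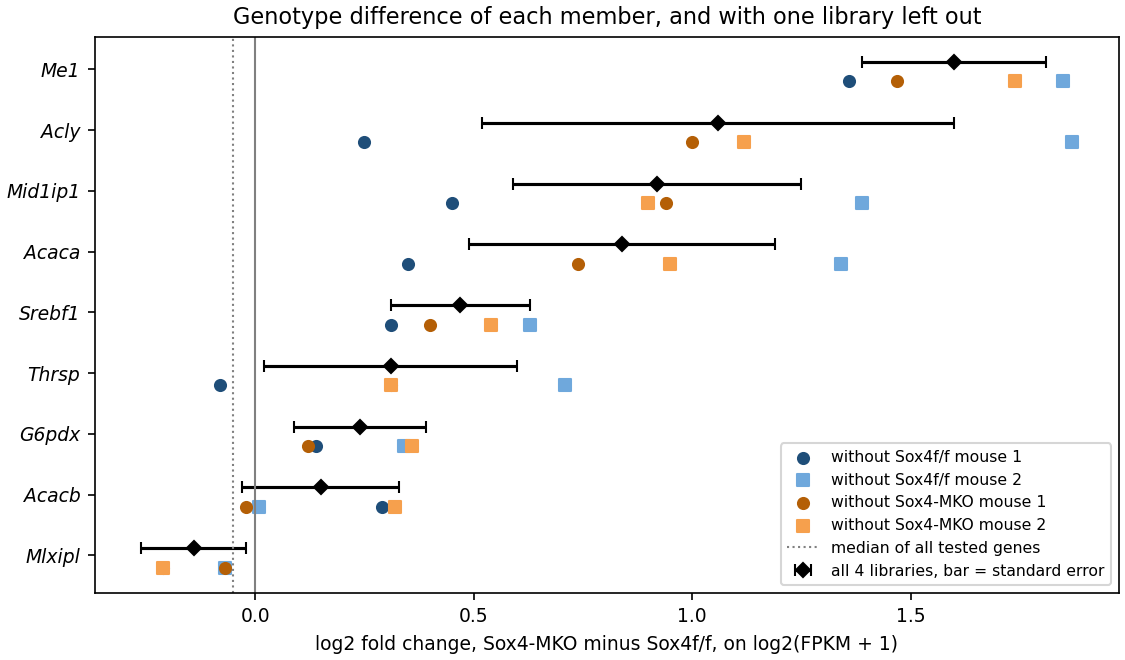
Log2 difference of Sox4-MKO minus Sox4f/f on the log2(FPKM + 1) scale for the 9 genes compared, with diamonds for all 4 libraries, bars for the standard error, and coloured points for the value with 1 library left out (points at the same value cover each other). The dotted line is the median of all tested genes, -0.05. Acly runs from 0.25 to 1.87 depending on which control mouse is left out, Me1 only from 1.36 to 1.85, and Thrsp and Acacb cross 0.

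The promoters of these genes were read from RefSeq as windows of 250 bases before each start site, and all 10 genes matched, with 14 windows in all. The only start sites of Acaca (84195438) and Acacb (114165518) lay well inside the genes, which begin at 84129672 and 114146535. The sequence before those outer ends was not searched. Searched on both strands, CCAAT (or ATTGG), the letters bound by NF-Y, occurred in 7 of the 14 windows and in 33.8% of 32851 promoter windows of mouse genes. The GC box GGGCGG, bound by SP1, occurred in 7 windows of the 14 and in 32.7% of all windows. The E box CACGTG, part of the element that ChREBP binds, occurred in 1 window, of Mlxipl, and in 6.02% of all. A sterol regulatory element of the letters TCACNCCAC (or GTGGNGTGA), of the kind SREBP binds, occurred in 1 window, of the other start of Mlxipl, and in 1.05% of all. AACAAAG (or CTTTGTT), a core that SOX proteins bind, occurred in 0 of the 14 windows and in 5.03% of all. A match of these letters is a description of the sequence and not evidence of binding.

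Mlxipl is known to use alternative first exons, and both its starts are shown. The outer start carries CACGTG, only part of the element that ChREBP binds, and the inner start TCACACCAC, letters of the kind SREBP binds. They lie at chr5:135089640-135089889 and chr5:135106641-135106890 on the plus strand, their start sites 17001 bases apart. Capitals in the first mark CACGTG (98 to 93 bases before the start), 2 GC boxes and a reversed CCAAT, and in the second TCACACCAC (136 to 128 bases before the start).
Mlxipl outer start: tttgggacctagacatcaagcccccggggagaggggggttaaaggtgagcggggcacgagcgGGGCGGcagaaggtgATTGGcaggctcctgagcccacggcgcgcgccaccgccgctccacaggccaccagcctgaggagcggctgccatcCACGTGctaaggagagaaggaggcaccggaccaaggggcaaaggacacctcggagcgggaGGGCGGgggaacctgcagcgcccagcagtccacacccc
Mlxipl inner start: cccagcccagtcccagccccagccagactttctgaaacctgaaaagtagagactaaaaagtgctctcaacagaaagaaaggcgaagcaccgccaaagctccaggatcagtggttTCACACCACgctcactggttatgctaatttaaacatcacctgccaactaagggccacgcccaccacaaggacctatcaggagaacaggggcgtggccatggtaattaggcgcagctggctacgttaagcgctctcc

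Acly, Fasn and Thrsp are shown as the citrate lyase whose level followed the control mice, the synthase that could not be compared and the most abundant of the 9 genes compared. They lie at chr11:100528001-100528250, chr11:120824548-120824797 and chr7:97417551-97417800, all on the minus strand. Capitals mark 4 GC boxes in Acly, 3 CCAAT matches in Fasn, of which 2 overlap as CCAATTGG, and 2 CCAAT matches in Thrsp.
Acly: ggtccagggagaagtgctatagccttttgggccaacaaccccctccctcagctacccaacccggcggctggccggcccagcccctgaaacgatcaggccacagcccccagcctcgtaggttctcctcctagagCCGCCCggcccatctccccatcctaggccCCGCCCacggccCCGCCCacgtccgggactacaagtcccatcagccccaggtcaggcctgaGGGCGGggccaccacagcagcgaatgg
Fasn: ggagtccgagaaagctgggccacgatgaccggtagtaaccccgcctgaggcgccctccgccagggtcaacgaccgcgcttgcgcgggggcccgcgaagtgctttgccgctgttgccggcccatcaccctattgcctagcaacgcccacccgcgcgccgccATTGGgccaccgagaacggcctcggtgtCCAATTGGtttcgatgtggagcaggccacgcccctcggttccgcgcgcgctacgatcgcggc
Thrsp: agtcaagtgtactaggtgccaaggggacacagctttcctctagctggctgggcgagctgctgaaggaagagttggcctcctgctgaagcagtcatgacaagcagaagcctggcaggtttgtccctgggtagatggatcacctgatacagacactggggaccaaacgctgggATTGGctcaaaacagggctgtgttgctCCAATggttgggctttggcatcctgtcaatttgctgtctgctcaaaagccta

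Genes that supply the pathway were measured in 16 rows for 15 genes of citrate export, acetyl-CoA and NADPH. Calls in this and the following lists are at an unadjusted p under 0.05, and the p printed is the adjusted one, which passed for none of them. By that rule 6 rows were higher and 2 lower, with a median log2 difference of 0.27, or 0.44 without Sox4f/f mouse 2. Slc25a1, the mitochondrial citrate carrier that feeds Acly, was at 215 and 294 FPKM in Sox4f/f mice and 585 and 490 FPKM in MKO-labelled mice, without overlap (log2 difference 1.09, SE 0.20, limma adjusted p = 0.196). Acss2, which makes acetyl-CoA from acetate, was at 80.8 and 126 against 235 and 178 FPKM (1.01, SE 0.27, limma adjusted p = 0.229). The other higher rows were Aacs (0.69), which activates acetoacetate for lipid synthesis, the pentose phosphate gene Pgd (0.70), the cytosolic isocitrate dehydrogenase gene Idh1 (0.38) and a row of Nnt, a gene on 2 rows. Pgls, the step between G6pdx and Pgd, was lower at 200 and 205 against 114 and 130 FPKM (-0.73, limma adjusted p = 0.196), as was the mitochondrial malic enzyme gene Me3 (-0.68, limma adjusted p = 0.238).

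Partners and processing factors of SREBP1 and ChREBP gave 1 higher and 1 lower gene of 14, with a median of -0.04 that was -0.10 without Sox4f/f mouse 1 and turned to 0.09 without Sox4f/f mouse 2 and to 0.04 without MKO-labelled mouse 1. Rxra, the nuclear receptor that pairs with LXR, was at 18.9 and 20.4 against 28.3 and 27.5 FPKM (0.49, limma adjusted p = 0.223), and Nr1h2, the gene of LXR beta, was at 51.7 and 50.3 against 39.4 and 37.2 FPKM (-0.40, limma adjusted p = 0.239). Insig1, which holds the SREBP complex in the endoplasmic reticulum and is itself an SREBP target, was at 89.7 and 161 FPKM in Sox4f/f mice and 183 and 211 FPKM in MKO-labelled mice (0.71, limma adjusted p = 0.342). As for Acly, Sox4f/f mouse 1 was the lowest here.

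Among 12 genes listed for malonyl-CoA use or acetyl-CoA carboxylase control, 1 was higher and 2 were lower. The median of -0.10 was -0.23 without MKO-labelled mouse 1 and -0.18 without Sox4f/f mouse 2. It was -0.06 without Sox4f/f mouse 1 and -0.05 without MKO-labelled mouse 2. Prkaa2, a catalytic subunit of the AMP-activated kinase that inhibits the carboxylases, was at 4.30 and 5.23 FPKM in Sox4f/f mice and 18.8 and 7.56 FPKM in MKO-labelled mice (1.18, limma adjusted p = 0.294). Prkab2, a regulatory subunit of that kinase, was at 3.68 and 4.47 against 16.4 and 5.44 FPKM (1.07, limma adjusted p = 0.371). Both were highest in MKO-labelled mouse 1, the library with the highest muscle markers, and the part of those markers was not tested. Prkag2, another regulatory subunit, was lower without overlap, at 84.8 and 81.8 against 47.8 and 45.2 FPKM (-0.83, limma adjusted p = 0.191). Cs, the citrate synthase gene, was the other lower one (-0.44, limma adjusted p = 0.277). It was counted in this list, although citrate synthase neither uses malonyl-CoA nor acts on the carboxylases.

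Genes that elongate, desaturate and esterify the product gave 3 higher and 0 lower of 12 that could be compared, with a median of 0.14, or 0.03 without MKO-labelled mouse 2. Scd2, a desaturase, was at 23.7 and 57.5 FPKM in Sox4f/f mice and 89.2 and 122 FPKM in MKO-labelled mice (1.47, SE 0.45, limma adjusted p = 0.25). Elovl6, which elongates palmitate to stearate, was at 91.2 and 99.4 against 155 and 185 FPKM (0.83, SE 0.14, limma adjusted p = 0.196), and here the control mice were close to each other. Fads1, a desaturase of polyunsaturated fatty acids, was the third (0.57, limma adjusted p = 0.275).

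Of 7 tested carbohydrate-response genes, Slc2a5 was higher (1.48, limma adjusted p = 0.231), and Gpd1, which makes glycerol 3-phosphate, was lower, at 1929 and 2284 against 1520 and 1323 FPKM (-0.57, limma adjusted p = 0.236). The median of these 7 was -0.10, and it was -0.26 without Sox4f/f mouse 1, was -0.04 without Sox4f/f mouse 2 and turned to 0.12 without MKO-labelled mouse 1. Of 12 tested sterol-response genes, 4 were higher and 1 was lower, with a median of 0.60 that was 0.33 without Sox4f/f mouse 1 and 0.31 without MKO-labelled mouse 2. The higher ones were the cholesterol synthesis genes Mvd (0.98), Fdps (0.68), Lss (0.67) and Idi1 (0.62). Hmgcs1, which makes the HMG-CoA from which that synthesis starts, went the other way, at 225 and 296 FPKM in Sox4f/f mice and 76.4 and 140 FPKM in MKO-labelled mice (-1.31, SE 0.33, limma adjusted p = 0.222).

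Mitochondrial fatty acid synthesis, a separate pathway that makes the precursor of lipoic acid, was measured through 6 genes, and all 6 had negative log2 differences, with a median of -0.38, or -0.24 without MKO-labelled mouse 2. Of these, 3 passed the threshold, namely Acsf3 (-0.52, limma adjusted p = 0.271), Cbr4 (-0.45, limma adjusted p = 0.302) and Ndufab1 (-0.40, limma adjusted p = 0.247). Acsf3, which makes mitochondrial malonyl-CoA, was at 37.8 and 47.0 FPKM in Sox4f/f mice and 32.1 and 26.6 FPKM in MKO-labelled mice. Among all tested genes without a library at 0, 7098 of 12596 had negative differences too, and the difference between this list and the 9 genes was not tested.

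**Figure D4:**
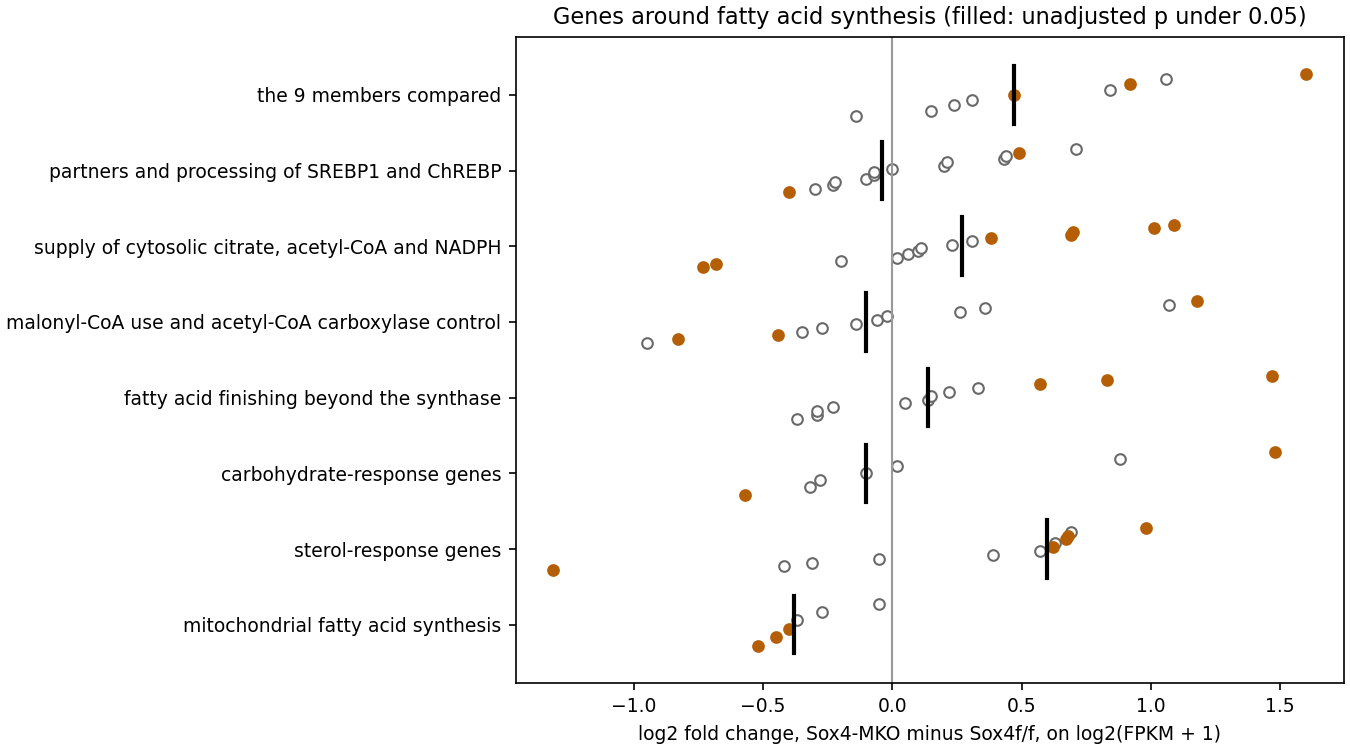
Log2 difference of Sox4-MKO minus Sox4f/f for each gene of the 8 lists, with 1 circle per gene, filled where the unadjusted limma p was under 0.05, and a vertical bar at the list's median. The highest medians of the 8 lists are those of the sterol-response genes (0.60, or 0.31 to 0.79 with a library left out) and of the 9 genes compared (0.47, or 0.29 to 0.71), and the mitochondrial list lies wholly below 0; Nnt, on 2 rows, and genes at 0 in a library are not drawn.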

How the data were processed

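Brown fat RNA of 2 Sox4f/f and 2 Sox4-MKO mice was sequenced by the authors, and the deposited tables give FPKM per gene. The submitters' processing notes name Cufflinks 2.1.1, Cuffdiff and mm10 without their roles, and the aligner and annotation are not given in the sources used here. The labels name a stranded mRNA kit and the study's methods an unstranded one, so reads of genes that overlap on opposite strands may not have been told apart. Genes with an averaged FPKM above 1 in either genotype were tested in limma 3.58.1 (R 4.3.3) on log2(FPKM + 1), with a two-sided test of genotype, no other covariate and a trended prior, and fold changes on that scale understate those of low genes. Calls are at an unadjusted p under 0.05, with Benjamini-Hochberg adjustment over all 12877 tested genes beside it. The study's methods give the same p and FPKM limits but name neither the test nor an adjustment. With 2 against 2 libraries an exact permutation test cannot go below p = 0.33. The fit was checked on simulated data. A fragment's worth in FPKM per library, hence the approximate depth, was read from the steps between low values of genes with 1 transcript. Gene positions are from GENCODE M21 and promoters from RefSeq, both on GRCm38.

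The members and gene lists were chosen with earlier results of these data known. Named are all members, Sox4, the 2 genes of each pathway list with the largest absolute difference, and the 5 genes nearest to Acly; other genes named were picked after their values were seen, and 1 gene under this rule is not reported here. Of the marker lists, general adipocyte (3 of 8 lower), endothelial (1 of 7 lower), B and T cell (1 of 3 higher) and erythroid (0 of 5) markers were also counted. Alternatives were a replicate block, each library left out, another pseudocount, other FPKM limits, other scalings, genes at 0 left out and no moderation.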

Additional observations from a re-analysis of the deposited data

How the results depend on the processing

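Me1 was higher at an unadjusted p under 0.05 in 13 of 13 alternatives, Mid1ip1 in 9 and Srebf1 in 8. Leaving out a library moved the members called higher from 3 to between 1 and 6: 1 without Sox4f/f mouse 1 or either MKO-labelled mouse, and 6 without Sox4f/f mouse 2. Over all tested genes it moved the higher calls from 1024 to between 445 and 1559, the lower calls from 1066 to between 404 and 1012, and the adjusted calls from 0 to between 0 and 5. Limma without moderation called 1 member and 553 genes higher and 935 lower. Rescaling without mitochondrially encoded genes and Ucp1 turned the split of 1024 higher and 1066 lower to 1322 and 746. Thrsp turned to -0.08 without Sox4f/f mouse 1 and Acacb ran from -0.02 without MKO-labelled mouse 1 to 0.32 without MKO-labelled mouse 2; the causes were not tested. Acaca passed the threshold under quantile normalization (0.93), the same rescaling (0.92) and without Sox4f/f mouse 2 (1.34). The members' median stayed between 0.29 and 0.71 over all alternatives.

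The difference between mouse 1 and mouse 2 was not correlated between the genotypes across the 12877 tested genes (Pearson r = -0.0122). With 1 such difference per genotype, this cannot tell whether the replicate numbers pair the mice. With a replicate block, 2 members were higher, Srebf1 being lost, and 970 genes were higher and 938 lower. At 2 mice a group, no adjusted call was made for any member.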
